A study of Mus musculus with 6 samples.

Results

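The mouse mitochondrial genome encodes 37 genes, and all 37 were found among the 55335 genes of the expression table as the rows whose symbols start with mt-. They comprise 13 protein-coding genes, 2 rRNA genes and 22 tRNA genes, and each of them passed the filter on low values (an average of 0.5 FPKM or more across the 6 libraries). FPKM is the number of fragments divided by transcript length and by library total. It is meant to make genes of different length comparable, which is not assured for genes as short as those of tRNAs. Bone marrow-derived macrophages (BMDMs) were obtained by culturing bone marrow cells of *Cd177* WT mice for 7 days with macrophage colony-stimulating factor at 25 ng/ml. They were then co-cultured directly for 24 h with neutrophils that had been isolated by magnetic sorting from injured spinal cords at 3 dpi (days post-injury). The 3 libraries labelled WT had received neutrophils of *Cd177* WT mice and the 3 labelled KO neutrophils of *Cd177* KO mice, so both groups share the WT genotype of the macrophages and the injury of the neutrophil donors. All mice of the study were male. Its methods name adult C57BL/6 mice. For the *Cd177* KO mice they give no strain, and an age only where these were marrow donors for transplantation. Neither labels nor methods say whether the 3 libraries of a group came from separate animals or cultures, so p-values measure the spread between these libraries, which may be technical. The comparison asked how macrophages differ after contact with neutrophils that lack or carry CD177, a surface protein of neutrophils.

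*Cd177* itself stood at 0.544, 0.309 and 0.521 FPKM in WT replicates 1, 2 and 3 and at 1.79, 1.84 and 2.28 FPKM in KO replicates 1, 2 and 3. It was thus higher where the added neutrophils were labelled *Cd177* KO, so groups are named below as the libraries labelled WT and KO. The knockout allele is not described in the sources used here, so *Cd177* RNA alone does not settle the genotype. Whether the labels were exchanged was not tested, and every direction below is that of the labels. The inflammatory genes *Tnf*, *Il1b*, *Il6* and *Nos2*, chosen after their values were seen, averaged 16.7, 8.75, 4.40 and 5.59 FPKM in WT and 7.70, 0.566, 0.121 and 0.0148 FPKM in KO, without overlap. The 12 neutrophil markers, whose cells the Ly6G-negative sort was meant to remove, summed to 164 to 230 FPKM in WT and to 530 to 544 FPKM in KO. All 9 of them that could be tested were higher (limma, adjusted p under 0.05), beside 27.1% of all tested genes. With median-of-ratios scaling, described below, 8 were higher, beside 15.3%. The filter averages both groups, so a marker can pass it through KO alone. *Ly6g* was listed at 0 in each library labelled WT and lay between 0.403 and 0.660 FPKM in those labelled KO. The 8 macrophage markers summed to between 6628 and 7990 FPKM in WT and between 7230 and 7917 FPKM in KO. Of these, 2 were higher and 2 lower (limma, adjusted p under 0.05), beside 27.1% and 10.5% of all tested genes. *Adgre1* (F4/80) stood at 241 ± 20.5 FPKM in WT and 297 ± 15.6 FPKM in KO (SD, n = 3), and *Mertk* rose from 19.3 to 31.9 FPKM on average. *Cd14*, an endotoxin co-receptor, fell from 1010 to 99.4 FPKM on average, and *Fcgr1* from 121 to 33.8 FPKM. With median-of-ratios scaling none of the 8 was higher and 2 were lower, beside 15.3% and 17.0%. The part of neutrophil RNA in the mitochondrial values was not tested, and in bulk samples fewer cells of a type and less RNA per cell cannot be told apart.

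The mitochondrial genome is a small circle that is transcribed from both strands into long polycistronic RNAs. The tRNAs lie between the other genes, and endonucleases that cut at their ends release the mRNAs and rRNAs, so that genes of one strand share a primary transcript and their steady-state levels are set in large part by processing and stability. The 13 mRNAs encode core subunits of complexes I, III, IV and V of the oxidative phosphorylation chain, the 2 rRNAs form the core of the mitochondrial ribosome, and the 22 tRNAs decode its messages. In macrophages, the activity of this chain is known to differ between inflammatory and alternatively activated states.

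Positions and sequences below are those of GENCODE M21 on GRCm38, the mitochondrial sequence running along its annotated plus strand from *mt-Tf* to *mt-Tp*, and the build used by the authors is not given in the sources used here. The 28 genes annotated on the plus strand are called heavy-strand-coded and the 9 on the minus strand light-strand-coded. Because the results turn on tRNA genes of 59 to 75 bases, the sequences given are, with the anticodon in capitals, those with the 2 largest called rises and the light-strand-coded genes of 1 cluster and of the far end. They are *mt-Tw* and *mt-Tt*, the heavy-strand-coded tRNA genes for tryptophan and threonine, and the light-strand-coded genes *mt-Ta*, *mt-Tn*, *mt-Tc* and *mt-Ty*, the cluster for alanine, asparagine, cysteine and tyrosine, with *mt-Tp* for proline.
mt-Tw: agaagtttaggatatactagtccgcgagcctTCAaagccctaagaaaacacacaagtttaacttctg
mt-Tt: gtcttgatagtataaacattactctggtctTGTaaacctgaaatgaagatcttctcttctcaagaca
mt-Ta: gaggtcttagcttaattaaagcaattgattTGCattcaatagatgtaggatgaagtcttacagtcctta
mt-Tn: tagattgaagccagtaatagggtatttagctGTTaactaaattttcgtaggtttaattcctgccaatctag
mt-Tc: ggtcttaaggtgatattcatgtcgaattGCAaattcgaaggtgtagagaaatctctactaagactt
mt-Ty: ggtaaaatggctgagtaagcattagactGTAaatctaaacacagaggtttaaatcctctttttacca
mt-Tp: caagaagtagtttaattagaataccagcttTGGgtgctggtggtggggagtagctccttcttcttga
Each is printed 5′ to 3′ on its own strand, as DNA. The tRNAs are shorter than common sequencing fragments, and how reads that span a tRNA and its neighbour were assigned is not given. Values of tRNA genes are therefore relative within these libraries and not an abundance of mature tRNA.

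Neighbouring genes also share bases, of which the widest stretch joins both subunit genes of complex V. *mt-Atp8* is shown whole because the 43 bases in capitals belong to *mt-Atp6* as well, so that reads there cannot be assigned to 1 of the genes by sequence.
mt-Atp8: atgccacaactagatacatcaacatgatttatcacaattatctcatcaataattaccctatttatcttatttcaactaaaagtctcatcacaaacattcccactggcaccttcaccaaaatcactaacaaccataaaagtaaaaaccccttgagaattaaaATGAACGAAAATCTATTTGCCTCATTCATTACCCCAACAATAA
The 8 other overlaps are between 1 and 14 bases long. The longest of these, between *mt-Nd5* and *mt-Nd6*, joins opposite strands, and strandedness of the libraries is not given.

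The nuclear genome holds copies of mitochondrial sequence, and these could share reads with the genes described here. Among annotated transcripts outside the mitochondrial genome, 17 matched a mitochondrial gene with at least 90% identity over at least 100 bases. Of these, 7 lay side by side on chromosome 1 (chr1:24611535-24616197, minus strand) and 5 of the 7 were identical to their mitochondrial counterpart over the aligned bases. The other 2 differed only near 1 end, as the windows of 40 bases below show with differing bases in capitals, counted from 1 at the first base of the mitochondrial gene. The window of *mt-Nd3* covers bases 1 to 40 (T3C in the copy *Gm28438*) and that of *mt-Co1* covers bases 1054 to 1093, the first of the copy *Gm29216*.
mt-Nd3: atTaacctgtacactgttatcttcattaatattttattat
Gm28438: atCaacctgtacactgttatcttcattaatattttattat
mt-Co1: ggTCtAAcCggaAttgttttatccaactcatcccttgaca
Gm29216: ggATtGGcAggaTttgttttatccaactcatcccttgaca
Of 345 bases of *Gm28438*, 1 differed from *mt-Nd3*, and of 492 bases of *Gm29216*, 6 differed from *mt-Co1*.

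Across the 37 genes, 20 rose and 2 fell in the KO group, and 15 did not pass the test (limma on log2(FPKM + 0.5), Benjamini-Hochberg adjusted p under 0.05 over 13367 genes). The direction followed the class of RNA. Both rRNAs fell, 6 of 13 mRNAs and 14 of 22 tRNAs rose, and no mRNA or tRNA fell in this fit, where none had an unadjusted p under 0.05 in that direction either. Of all tested genes, 27.1% were called higher and 10.5% lower, and whether the mitochondrial genes exceed these shares was not tested. Values of the groups did not overlap in 24 genes that were higher and 2 that were lower, beside 37.5% and 14.4% of all tested genes. The median log2 difference of all tested genes was 0.19 and that of the mitochondrial genes 0.57, with 31 of the 37 above the median of all genes.

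The calls of the mRNAs depended on how libraries were scaled, whereas those of the rRNAs and most tRNAs did not. With median-of-ratios scaling, which brings the median of all tested genes to -0.014 and calls 15.3% of them higher and 17.0% lower, none of the 13 mRNAs was called (3 had an unadjusted p under 0.05, all higher), while 11 tRNAs were still called higher and both rRNAs lower. The median of the mRNAs was then 0.27 and that of the tRNAs 0.57. Over all alternatives that tested it, no call of an mRNA held throughout, but the fall of *mt-Rnr1* and the rise of 11 tRNAs did, among them *mt-Tv*, which rests on about 2.2 to 4.5 fragments per library.

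**Figure D1:**
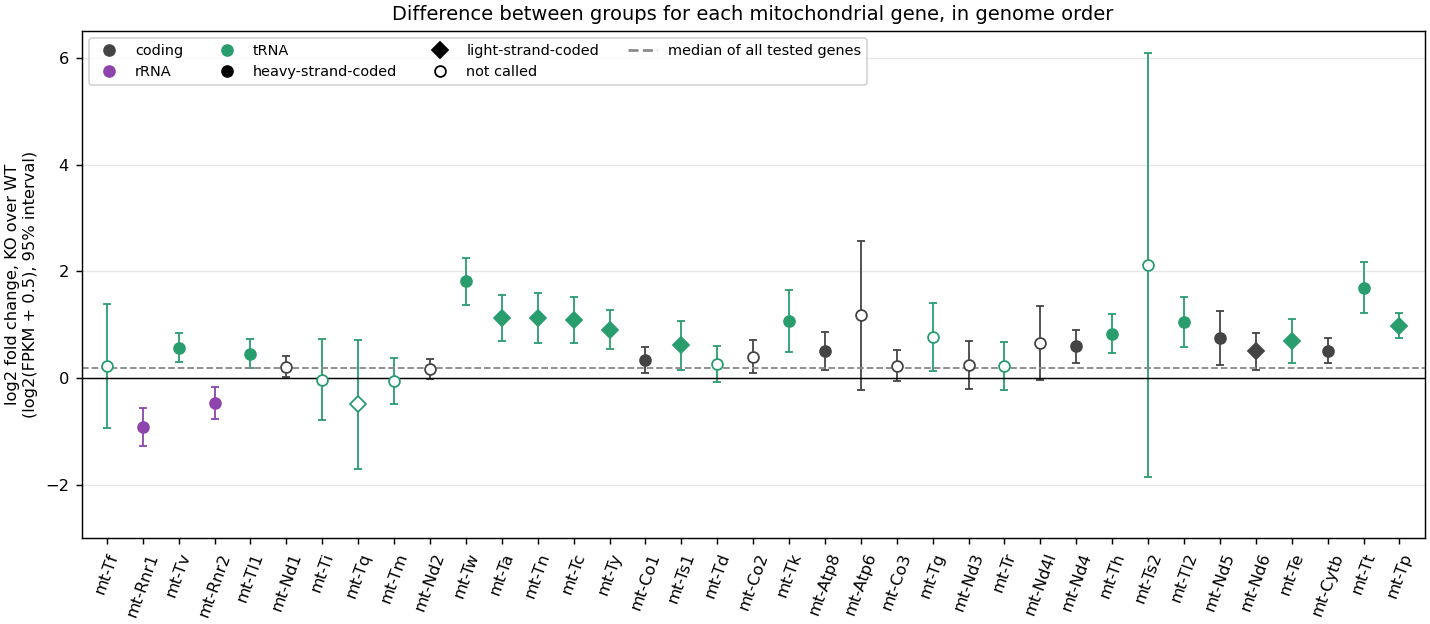
Log2 difference (KO over WT, limma on log2(FPKM + 0.5), 95% interval) of each mitochondrial gene in genome order. Filled symbols passed the test, diamonds are light-strand-coded genes, and the dashed line is the median of all tested genes at 0.19. Both rRNA genes lie below 0, and the genes furthest above it that passed the test are mt-Tw at 1.81 and mt-Tt at 1.70.

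As a share of all FPKM in a library, mitochondrial mRNA stood at 4.86%, 5.31% and 4.13% in WT replicates 1, 2 and 3 and at 6.58%, 6.71% and 6.08% in KO replicates 1, 2 and 3. Every library labelled KO was above every library labelled WT, with means of 4.77% ± 0.593 and 6.46% ± 0.337 (SD, n = 3), a ratio of 1.35. The tRNA genes held 0.222%, 0.252% and 0.266% in WT and 0.473%, 0.457% and 0.392% in KO, a ratio of means of 1.79. The rRNA genes held 0.134%, 0.164% and 0.172% in WT and 0.1032%, 0.1037% and 0.1001% in KO, a ratio of 0.655. The rRNA share was thus lower in every library labelled KO and the shares of mRNA and tRNA higher. These sums are described without a test.

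**Figure D2:**
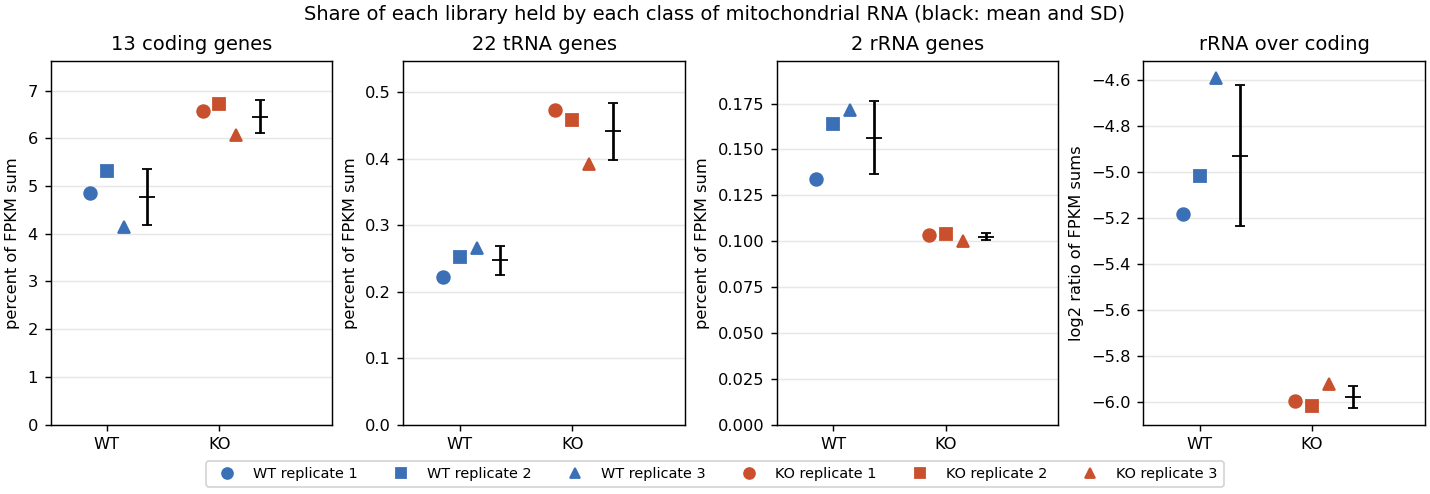
Percent of the FPKM sum of each library in mitochondrial mRNA, tRNA and rRNA genes, and the log2 ratio of the rRNA to the mRNA sum (each point 1 library, black bars mean and SD of 3). The groups do not overlap in any of the panels, and the rRNA genes are the only class in which KO is lower.

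A ratio within a library is free of the scaling between libraries. The log2 ratio of rRNA to mRNA was -5.18, -5.02 and -4.59 in WT replicates 1, 2 and 3 and -6.00, -6.02 and -5.92 in KO replicates 1, 2 and 3. The groups did not overlap, and their means differed by -1.05. The log2 ratio of tRNA to rRNA was between 0.62 and 0.73 in WT and between 1.97 and 2.20 in KO, with a difference of means of 1.44. The ratio of tRNA to mRNA differed less, with values from -4.45 to -3.96 in WT and from -3.95 to -3.80 in KO, and WT replicate 3 lay next to KO replicate 3.

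The rRNA genes *mt-Rnr1* and *mt-Rnr2*, which encode the 12S rRNA of the small and the 16S rRNA of the large ribosomal subunit, lie at chrM:70-1024 and chrM:1094-2675. *mt-Rnr1* stood at 150, 184 and 227 FPKM in WT replicates 1, 2 and 3 and at 97.6, 92.9 and 101 FPKM in KO replicates 1, 2 and 3. *mt-Rnr2* stood at 258, 312 and 358 FPKM in WT and at 221, 224 and 221 FPKM in KO. In both genes each library labelled KO was below each library labelled WT, and the 3 libraries labelled KO lay closer together than those labelled WT. The log2 difference was -0.92 ± 0.15 (SE) for *mt-Rnr1*, with an adjusted p of 0.00372 (limma), and -0.46 ± 0.13 for *mt-Rnr2*, with an adjusted p of 0.0265. The log2 ratio of *mt-Rnr1* to *mt-Rnr2* was between -0.78 and -0.66 in WT and between -1.27 and -1.13 in KO, so *mt-Rnr1* was lower relative to *mt-Rnr2* in each library labelled KO.

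The fall of *mt-Rnr1* passed the test whichever library was left out, whereas that of *mt-Rnr2* did not pass without WT replicate 2 (adjusted p 0.0734, limma) or without KO replicate 1, 2 or 3 (0.0846, 0.0795 and 0.0690). The labels name a kit for mRNA and the study's methods another kit, so how much rRNA the libraries kept is not settled, and these levels are relative within the libraries and not an abundance of ribosomes. *AY036118*, a row that overlaps cytosolic rRNA sequence, stood at 3598, 4799 and 5475 FPKM in WT and at 2911, 2720 and 5011 FPKM in KO. Its groups overlapped through KO replicate 3, while KO replicates 1 and 2 were below every library labelled WT. In WT it rose from replicate 1 to replicate 3, as did *mt-Rnr1* and *mt-Rnr2*. In KO replicate 3 it was high, and both mitochondrial rRNAs were below every library labelled WT. The part of *AY036118* in the fall of the rRNAs was not tested.

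Between and after these genes lie *mt-Tv*, the valine tRNA gene that separates them, and *mt-Tl1*, a leucine tRNA gene that follows *mt-Rnr2* directly at chrM:2676-2750. Both are cut from the same precursor as the rRNAs, and both rose. *mt-Tl1* stood at 152, 180 and 135 FPKM in WT replicates 1, 2 and 3 and at 207, 214 and 218 FPKM in KO replicates 1, 2 and 3, with no overlap and a log2 difference of 0.46 ± 0.12 (SE, adjusted p 0.0211, limma). Its log2 ratio to *mt-Rnr2* was -0.76, -0.79 and -1.41 in WT and -0.098, -0.063 and -0.025 in KO. With median-of-ratios scaling its adjusted p was 0.166, and it was between 0.0618 and 0.0718 without WT replicate 1 or any 1 of the KO libraries. *mt-Tv* was low, at 1.65 to 1.84 FPKM in WT and 2.63 to 3.20 FPKM in KO, which is about 2.2 to 4.5 fragments per library at the depth implied by the table, and its log2 difference was 0.57 (adjusted p 0.00861). *mt-Tf*, the phenylalanine tRNA gene before *mt-Rnr1*, was lower still, at no more than 1.65 FPKM, and did not pass the test.

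Of the 7 mRNAs for subunits of complex I, the NADH dehydrogenase, 3 rose, *mt-Nd4*, *mt-Nd5* and *mt-Nd6*. *mt-Nd4* (chrM:10167-11544) stood at 842, 917 and 679 FPKM in WT replicates 1, 2 and 3 and at 1217, 1269 and 1166 FPKM in KO replicates 1, 2 and 3, a log2 difference of 0.59 ± 0.13 (SE, adjusted p 0.0111, limma). *mt-Nd5* (chrM:11742-13565) stood at 612, 680 and 414 FPKM in WT and at 1026, 1054 and 766 FPKM in KO, a log2 difference of 0.76 ± 0.21 (adjusted p 0.0319). Both genes had their lowest value of each group in replicate 3, and neither pair of groups overlapped. *mt-Nd6* (chrM:13552-14070), the only mRNA gene coded on the light strand, stood at 597, 683 and 861 FPKM in WT and at 955, 976 and 1069 FPKM in KO, a log2 difference of 0.50 ± 0.15 (adjusted p 0.0336). In *mt-Nd6* it was replicate 3 of each group that was highest, the reverse of its overlapping neighbour *mt-Nd5*.

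The other 4 complex I mRNAs did not pass the test. *mt-Nd1* (chrM:2751-3707), the first mRNA gene after the rRNAs, stood at 1439, 1491 and 1549 FPKM in WT and at 1707, 1737 and 1737 FPKM in KO (log2 difference 0.21, adjusted p 0.0875, limma). *mt-Nd2* (chrM:3914-4951) stood at 843, 892 and 811 FPKM in WT and at 956, 962 and 947 FPKM in KO (0.17, adjusted p 0.141). The groups of both genes did not overlap, yet the differences were near the 0.19 of the median gene, and with median-of-ratios scaling they became -0.019 and -0.058. *mt-Nd3* (chrM:9459-9806) stood at 145, 160 and 216 FPKM in WT and at 224, 230 and 164 FPKM in KO, and *mt-Nd4l* (chrM:9877-10173) at 484, 523 and 265 FPKM in WT and at 713, 763 and 491 FPKM in KO. Their groups overlapped through replicate 3 alone, which in *mt-Nd3* was high in WT and low in KO, and in *mt-Nd4l* was low in both groups.

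*mt-Cytb* (chrM:14145-15288) encodes cytochrome b, the only mitochondrially encoded subunit of complex III. It stood at 1315, 1417 and 1258 FPKM in WT replicates 1, 2 and 3 and at 1956, 1984 and 1770 FPKM in KO replicates 1, 2 and 3. The groups did not overlap, and the log2 difference was 0.52 ± 0.10 (SE, adjusted p 0.00624, limma). It was the only mRNA whose rise passed the test whichever library was left out, with an adjusted p of at most 0.0414, and it did not pass with median-of-ratios scaling (0.29, adjusted p 0.0706).

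The catalytic subunits of complex IV, cytochrome c oxidase, are encoded by *mt-Co1*, *mt-Co2* and *mt-Co3*, and *mt-Co1* was the most abundant of all mitochondrial genes. *mt-Co1* (chrM:5328-6872) stood at 4275, 4731 and 4134 FPKM in WT and at 5707, 5564 and 5357 FPKM in KO, a log2 difference of 0.34 ± 0.10 (SE, adjusted p 0.0363, limma). *mt-Co2* (chrM:7013-7696) stood at 1354, 1384 and 1800 FPKM in WT and at 1914, 1946 and 2092 FPKM in KO (0.40 ± 0.13, adjusted p 0.0513). *mt-Co3* (chrM:8607-9390) stood at 998, 1069 and 1268 FPKM in WT and at 1233, 1246 and 1420 FPKM in KO (0.23, adjusted p 0.181). Groups did not overlap in *mt-Co1* and *mt-Co2*, whereas in *mt-Co3* WT replicate 3 exceeded 2 libraries labelled KO. The rise of *mt-Co1* did not pass without WT replicate 1 (adjusted p 0.120) or without KO replicate 1, 2 or 3 (0.162, 0.139 and 0.0768). *mt-Co2* and *mt-Co3* passed without WT replicate 3 (adjusted p 0.00206 and 0.0266).

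Complex V, the ATP synthase, has its membrane subunits a and A6L encoded by *mt-Atp6* (chrM:7927-8607) and *mt-Atp8* (chrM:7766-7969). *mt-Atp8* stood at 675, 766 and 559 FPKM in WT and at 997, 1034 and 813 FPKM in KO, a log2 difference of 0.51 ± 0.15 (SE, adjusted p 0.0355, limma), with no overlap. *mt-Atp6* stood at 1266, 1351 and 271 FPKM in WT and at 1732, 1730 and 1802 FPKM in KO. WT replicate 3 alone sets the spread of *mt-Atp6*, whose log2 difference of 1.18 ± 0.59 did not pass (adjusted p 0.159), while without that library it was 0.42 (adjusted p 0.00387). The calls of *mt-Atp8*, *mt-Nd5* and *mt-Nd6* did not pass without WT replicate 1 (adjusted p 0.0850, 0.0608 and 0.0961), KO replicate 1 (0.119, 0.104 and 0.0823) or KO replicate 2 (0.123, 0.106 and 0.0899). That of *mt-Nd6* also failed without WT replicate 2 (0.0918) or KO replicate 3 (0.0969), and that of *mt-Nd4* without KO replicate 2 (0.0508).

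**Figure D3:**
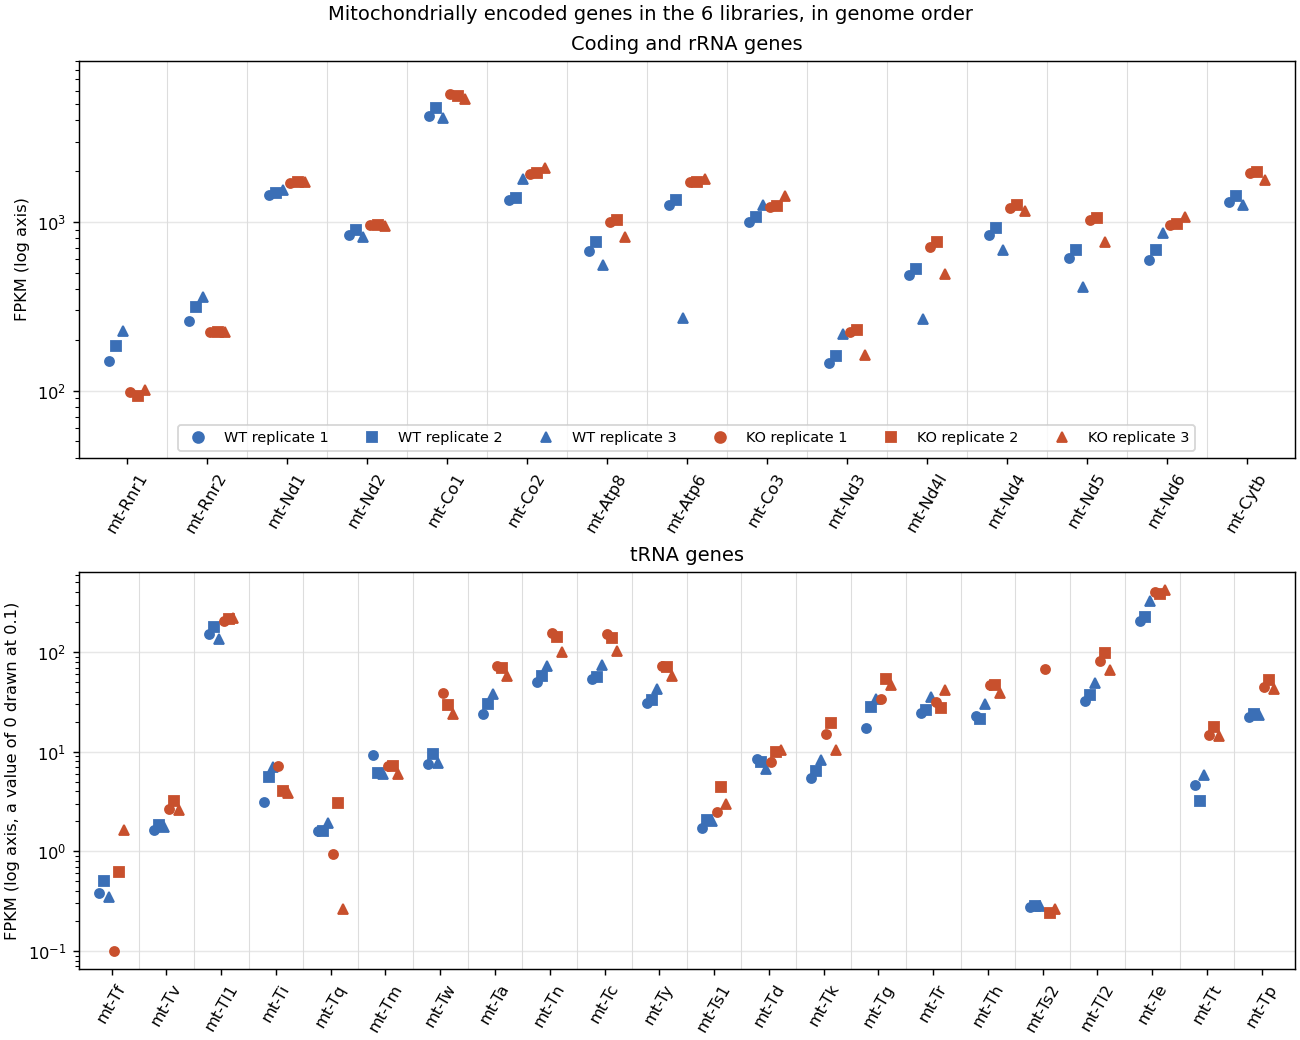
FPKM of each mitochondrial gene in each library on a log axis, in genome order, mRNA and rRNA genes above and tRNA genes below (circle, square and triangle are replicates 1, 2 and 3, blue WT and red KO). WT replicate 3 stands apart in mt-Atp6 at 271 FPKM, and KO replicate 1 in mt-Ts2 at 68.1 FPKM.

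Among the 13 mRNAs, *mt-Co1* was the most and *mt-Nd3* the least abundant in each library. As a percent of their FPKM sum, *mt-Co1* made up 29.2 ± 0.354 in WT and 27.5 ± 0.481 in KO (SD, n = 3), and *mt-Nd3* made up 1.17 ± 0.314 and 1.02 ± 0.159. The shares of *mt-Nd1* and *mt-Nd2* were 9.99 and 5.66 in WT and 8.58 and 4.74 in KO, lower in each library labelled KO than in each labelled WT. *mt-Cytb* held 8.87 ± 0.0572 in WT and 9.44 ± 0.357 in KO, higher in each library labelled KO. By complex, subunits of complex I held 33.6% of the sum in WT and 33.3% in KO, a difference smaller than the spread between libraries.

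The largest rises that passed the test were those of tRNAs. *mt-Tw* (chrM:4950-5016), which follows *mt-Nd2*, stood at 7.58, 9.48 and 7.71 FPKM in WT replicates 1, 2 and 3 and at 38.9, 29.3 and 24.1 FPKM in KO replicates 1, 2 and 3, a log2 difference of 1.81 ± 0.18 (SE, adjusted p 0.000466, limma). *mt-Tt* (chrM:15289-15355), which follows *mt-Cytb*, stood at 4.60, 3.21 and 5.86 FPKM in WT and at 14.6, 17.8 and 14.2 FPKM in KO, a log2 difference of 1.70 ± 0.20 (adjusted p 0.000967). The lowest library labelled KO was above the highest labelled WT by more than the range within WT in both. Their mRNA neighbours *mt-Nd2* and *mt-Cytb* differed by 0.17 and 0.52 on the same scale. The values correspond to about 9.3 to 45.9 fragments per library for *mt-Tw* and 3.9 to 24.2 for *mt-Tt*, so these values rest on few fragments.

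The light-strand-coded tRNA genes rose in 7 of 8 cases, beside 27.1% of all tested genes. With median-of-ratios scaling 5 of the 8 were called higher, beside 15.3%, and whether the strands differ was not tested. All 4 genes of the cluster between *mt-Nd2* and *mt-Co1* were among them. *mt-Ta* (chrM:5018-5086) stood at 23.7, 30.0 and 37.8 FPKM in WT and at 73.2, 69.4 and 57.3 FPKM in KO (log2 difference 1.13 ± 0.18, adjusted p 0.00334, limma). *mt-Tn* (chrM:5089-5159) stood at 50.1, 57.3 and 72.3 FPKM in WT and at 156, 141 and 99.9 FPKM in KO (1.13 ± 0.20, adjusted p 0.00519). Across the whole cluster, WT replicate 3 was the highest of its group and KO replicate 3 the lowest of its own, without overlap. *mt-Tc* (chrM:5192-5257) and *mt-Ty* (chrM:5260-5326) had log2 differences of 1.09 and 0.91 (adjusted p 0.00423 and 0.00404), with 61.2 ± 11.3 and 35.4 ± 6.35 FPKM in WT and 131 ± 25.2 and 66.5 ± 8.18 FPKM in KO (SD, n = 3).

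Of the remaining light-strand-coded tRNA genes, *mt-Tp* (chrM:15356-15422), the last gene before the control region, had the narrowest spread. It stood at 22.3, 23.9 and 23.5 FPKM in WT and at 44.7, 52.7 and 42.6 FPKM in KO, a log2 difference of 0.99 ± 0.10 (SE, adjusted p 0.000480, limma). *mt-Te* (chrM:14071-14139), the glutamate tRNA gene beside *mt-Nd6* and the most abundant tRNA gene in these libraries, stood at 205, 225 and 324 FPKM in WT and at 400, 385 and 417 FPKM in KO (0.70 ± 0.17, adjusted p 0.0187). Its call was lost with median-of-ratios scaling (adjusted p 0.105) and without WT replicate 1 or 2 or any 1 KO library (0.0520 to 0.0622). *mt-Ts1*, a serine tRNA gene that overlaps *mt-Co1* on the opposite strand, had 1.71 to 2.04 FPKM in WT and 2.46 to 4.40 FPKM in KO (0.61, adjusted p 0.0462), about 2.2 to 6.2 fragments per library, a call that held in 7 alternatives. It failed in each fit that left out 1 library other than KO replicate 1, where the adjusted p was between 0.0650 and 0.128. *mt-Tq*, for glutamine, had 1.61 to 1.93 FPKM in WT and 0.262 to 3.03 FPKM in KO and did not pass (adjusted p 0.481), but was lower without KO replicate 2 (log2 difference -1.08, adjusted p 0.0419).

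Of the 14 heavy-strand-coded tRNA genes, 7 rose, among them *mt-Tw*, *mt-Tt*, *mt-Tv* and *mt-Tl1* described above, beside 27.1% of all tested genes. With median-of-ratios scaling 6 of the 14 were called higher, beside 15.3%. *mt-Tl2* (chrM:11671-11741), the second leucine tRNA gene, stood at 32.4, 36.7 and 49.4 FPKM in WT and at 81.4, 98.2 and 66.8 FPKM in KO (log2 difference 1.05 ± 0.20, adjusted p 0.00624, limma). *mt-Th* (chrM:11546-11612), for histidine, stood at 22.6, 21.6 and 30.5 FPKM in WT and at 47.0, 46.8 and 39.0 FPKM in KO (0.83 ± 0.15, adjusted p 0.00582). *mt-Tk* (chrM:7700-7764), for lysine, stood at 5.47, 6.42 and 8.30 FPKM in WT and at 15.1, 19.6 and 10.4 FPKM in KO (1.08 ± 0.24, adjusted p 0.0136). In all 3 genes the groups did not overlap, and WT replicate 3 and KO replicate 3 lay closest to the other group.

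The remaining 7 heavy-strand-coded tRNA genes did not pass. *mt-Tg*, for glycine, had 26.4 ± 8.27 FPKM in WT and 44.6 ± 10.2 in KO (SD, n = 3) and a log2 difference of 0.77 (adjusted p 0.0621, limma), which became 0.97 without WT replicate 3 (adjusted p 0.0278). *mt-Tr* (arginine), *mt-Td* (aspartate), *mt-Ti* (isoleucine) and *mt-Tm* (methionine) had log2 differences of 0.22, 0.27, -0.030 and -0.051, with adjusted p between 0.179 and 0.951. *mt-Ts2*, the second serine tRNA gene, was at 0.239 to 0.285 FPKM in 5 libraries and at 68.1 FPKM in KO replicate 1, which is about 0.3 fragments against 70.7. Its neighbours *mt-Th* and *mt-Tl2*, which it touches on either side, showed no such value in that library.

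Of the 5 identical copies on chromosome 1, 4 carried nearly the same FPKM as their mitochondrial counterparts in most libraries, and *Gm28439*, which covers part of *mt-Nd4*, carried between 54.3% and 62.9% of it. *Gm28437*, the copy of *mt-Co3*, stood at 997, 1067 and 1262 FPKM in WT replicates 1, 2 and 3 and at 1231, 1245 and 1418 FPKM in KO replicates 1, 2 and 3, between 99.5% and 99.9% of *mt-Co3*. Over all copies and libraries, 23 of 42 values lay within 10% of the mitochondrial gene. *Gm10925*, the copy of *mt-Atp6*, stood at 1315, 1404 and 1424 FPKM in WT and at 1806, 1809 and 1867 FPKM in KO, so in WT replicate 3, where *mt-Atp6* was low, its copy was not. With the copies added in proportion to length, *mt-Atp6* passed the test (log2 difference 0.64, adjusted p 0.0351, limma), and the calls of *mt-Co1* and *mt-Nd4* held (adjusted p 0.0316 and 0.0167). The copies made up 2.24% ± 0.0731 of the FPKM sum in WT and 2.94% ± 0.0949 in KO (SD, n = 3), and how reads that match both places were counted is not given. The other 10 copies had at most 12.7 FPKM, and 3 of them were listed at 0 in all libraries. No annotated transcript on chromosome 1 was found to match an rRNA gene, *mt-Cytb*, *mt-Nd5* or *mt-Nd6*. The search asked for at least 100 aligned bases, whereas tRNA genes have 59 to 75, so copies of tRNA genes could not be found by it. The copies on chromosome 1 keep the order of their mitochondrial counterparts, between which *mt-Atp8* and several tRNA genes lie. Sequence between the copies was not examined, so whether *mt-Atp8* and these tRNA genes have copies there was not tested. The fit with the copies added holds none for them.

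**Figure D4:**
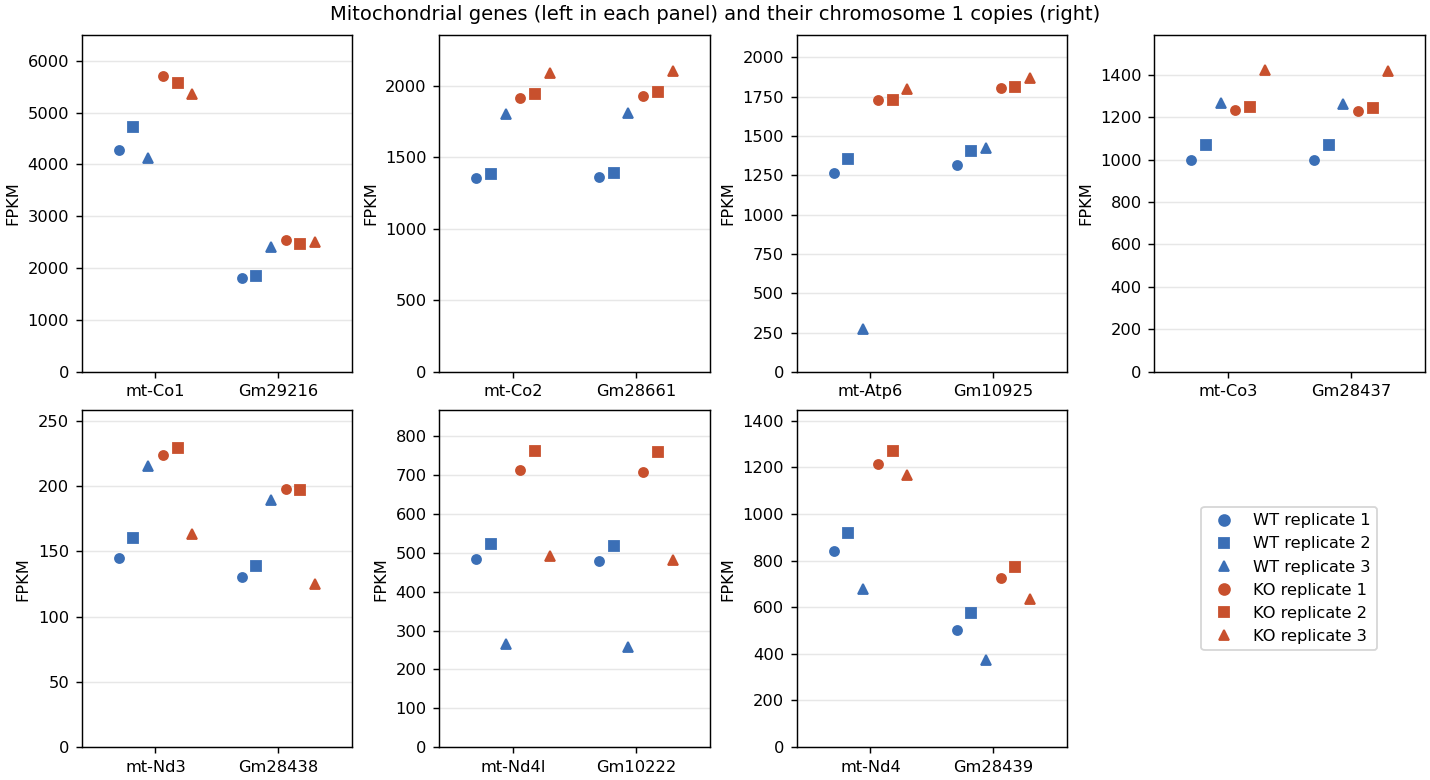
FPKM of 7 mitochondrial mRNA genes and of their chromosome 1 copies in each library (linear axes from 0). In WT replicate 3, mt-Atp6 is at 271 FPKM against 1424 for its copy, and mt-Co1 is the lowest of its group where its copy Gm29216 is the highest.

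Nuclear-encoded subunits of the same complexes had smaller median differences than the mitochondrially encoded ones. Of 72 tested nuclear subunits of complexes I, III, IV and V, 3 were higher and none lower (limma, 11 and 0 at an unadjusted p under 0.05), beside 27.1% and 10.5% of all tested genes, with a median log2 difference of 0.14, below that of all tested genes. With median-of-ratios scaling 1 was higher and 1 lower, beside 15.3% and 17.0%. Those 3 were *Ndufb3*, from 15.3 ± 3.25 to 25.4 ± 1.49 FPKM (SD, n = 3), and *Ndufa6*, both of complex I, and *Atp5g2*, a c subunit of complex V. The mRNAs of the mitochondrial genome had medians of 0.50 for complex I, 0.52 for complex III, 0.34 for complex IV and 0.85 for complex V, beside 0.20, 0.10, 0.15 and 0.082 for the nuclear subunits. This difference was not tested. The complex V value rests on 2 genes and on the low *mt-Atp6* of WT replicate 3, and was 0.41 without that library. Without both libraries numbered 3 the medians were 0.55, 0.53, 0.33 and 0.45, beside 0.31, 0.18, 0.30 and 0.18 for the nuclear subunits, so that those of complex IV then lay close together. The count of nuclear subunits depended on the libraries numbered 3: without WT replicate 3 it was 32 higher and none lower, and without both libraries numbered 3 it was 38 higher and 1 lower, and 12 of 13 mRNAs of the mitochondrial genome were then higher. Calls among all tested genes also became more frequent, at 31.6% higher and 12.8% lower without WT replicate 3 and 33.8% and 14.5% without both.

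**Figure D5:**
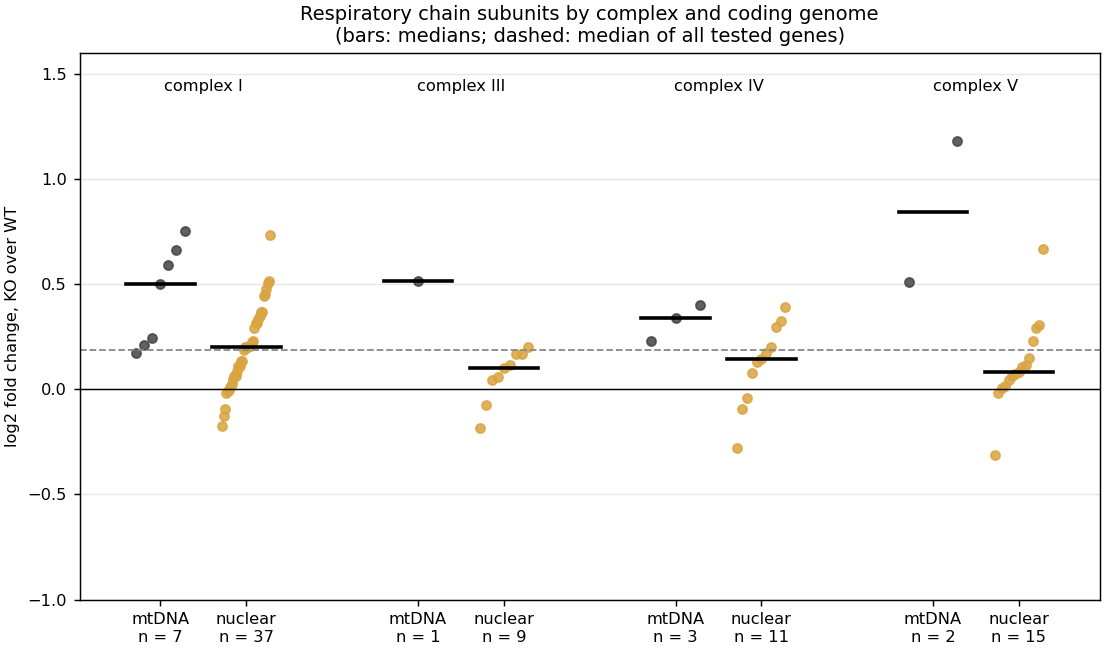
Log2 difference (KO over WT) of each tested subunit of complexes I, III, IV and V, by the genome that encodes it (grey mitochondrial, gold nuclear, black bars medians, dashed line the median of all tested genes). Mitochondrially encoded subunits have medians of 0.34 to 0.85 and nuclear ones of 0.082 to 0.20, the 0.85 being that of complex V, which is 0.41 without WT replicate 3.

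Of 28 tested genes that transcribe and maintain the mitochondrial genome, 6 were higher and 1 lower, beside 27.1% and 10.5% of all tested genes. Their median log2 difference was 0.19, close to that of all tested genes. With median-of-ratios scaling 4 were higher and 2 lower, beside 15.3% and 17.0% of all tested genes. The core factors *Polrmt*, the RNA polymerase, *Tfam*, which packages the genome and starts transcription, *Tfb2m*, which melts promoters, and *Tefm*, the elongation factor, had log2 differences of 0.41, 0.12, 0.22 and 0.39, none past the test (adjusted p 0.124 to 0.456, limma). *Polg*, the replicative polymerase, and *Twnk*, its helicase, had differences of 0.023 and 0.10 (adjusted p 0.943 and 0.579). Among genes that changed, *Dguok* and *Tk2*, the deoxynucleoside kinases of mitochondria, rose from 2.01 to 4.16 and from 5.60 to 10.7 FPKM on average, and *Primpol*, a primase, from 0.755 to 1.79. *Slc25a33*, a pyrimidine nucleotide carrier, stood at 6.84, 8.55 and 9.81 FPKM in WT and at 3.36, 3.36 and 4.31 FPKM in KO and fell by 1.09 on the log2 scale (adjusted p 0.00225). Without WT replicate 3 this list held 11 calls and without WT replicate 1 it held 4.

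Of 37 tested genes for processing and stability of mitochondrial RNA, 3 were higher and 3 lower, beside 27.1% and 10.5% of all tested genes, with a median log2 difference of 0.13. *Pnpt1*, the polynucleotide phosphorylase that degrades mitochondrial RNA, stood at 11.7, 13.7 and 12.4 FPKM in WT replicates 1, 2 and 3 and at 8.08, 8.07 and 8.66 FPKM in KO replicates 1, 2 and 3. Its groups did not overlap, and it fell by 0.57 on the log2 scale (SE 0.09, adjusted p 0.00353, limma), also with median-of-ratios scaling. Its helicase partner *Supv3l1* did not pass (0.077, adjusted p 0.762), nor did *Lrpprc* and *Slirp*, which stabilise mitochondrial mRNAs (0.16 and -0.074, adjusted p 0.314 and 0.840), *Elac2*, which cuts tRNA 3′ ends (0.13, adjusted p 0.382), or *Mtpap*, the poly(A) polymerase (0.20, adjusted p 0.283). *Trub2*, a pseudouridine synthase, and *Tbrg4* also fell, by 0.46 and 0.37 on the log2 scale. *Nsun3*, which modifies the methionine tRNA, *Hsd17b10*, a subunit of the enzyme that cuts tRNA 5′ ends, and *Taco1*, a translational activator of *mt-Co1*, rose by 0.56, 0.51 and 0.41, but with median-of-ratios scaling no gene of the list was called higher (1 at an unadjusted p under 0.05) and 4 were lower, beside 15.3% and 17.0% of all tested genes. The count of calls was 6 with all libraries and between 1 (without KO replicate 2) and 10 (without WT replicate 3) when 1 was left out, and 3 without WT replicate 1 or KO replicate 1.

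The protein genes of the mitochondrial ribosome did not share the fall of its rRNAs in this fit. Of 79 tested, 4 were higher and 3 lower, beside 27.1% and 10.5% of all tested genes, with a median log2 difference of 0.077. With median-of-ratios scaling none was higher and 10 were lower (1 and 16 at an unadjusted p under 0.05, limma), beside 15.3% and 17.0% of all tested genes, with a median of -0.14, while *mt-Rnr1* and *mt-Rnr2* then differed by -1.15 and -0.69. *Mrps28*, of the small subunit, fell from 22.8 ± 3.79 to 14.3 ± 0.484 FPKM (SD, n = 3), and *Mrpl39* and *Mrps18b* fell as well, by 0.49 and 0.47 on the log2 scale, whereas *Mrpl42*, *Mrpl23* and *Mrps25* rose by 0.51, 0.46 and 0.44. The list held between 3 calls (without KO replicate 2) and 22 (without WT replicate 3), with 4 without WT replicate 1.

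Of 24 tested genes that reflect mitochondrial mass or its regulation, 5 were higher and 1 lower, beside 27.1% and 10.5% of all tested genes. With median-of-ratios scaling 1 was higher and 3 were lower, beside 15.3% and 17.0%. The median log2 difference in the reported fit was 0.017, below the 0.19 of all tested genes. *Slc25a4*, an adenine nucleotide carrier, rose from 53.1 ± 7.40 to 87.9 ± 8.64 FPKM (SD, n = 3), and *Vdac1*, the outer membrane channel, from 54.5 ± 4.84 to 69.7 ± 2.08, and *Mfn2*, a fusion factor, from 9.88 to 14.4. *Pprc1*, a coactivator related to PGC-1, fell from 7.72 to 3.91 FPKM. *Slc25a4* and *Pprc1* were also called with median-of-ratios scaling (adjusted p 0.0363 and 0.0102, limma), whereas *Vdac1* and *Mfn2* were not (0.398 and 0.136). *Gabpa*, a transcription factor for nuclear respiratory genes, rose by 0.31 on the log2 scale (adjusted p 0.0208, limma) but not with median-of-ratios scaling (adjusted p 0.407). *Nrf1* did not pass (0.26, adjusted p 0.175), nor did *Ppargc1b* (-0.013, adjusted p 0.972), and *Ppargc1a* was at or below 0.0335 FPKM in every library. Leaving out 1 library left between 1 call (without KO replicate 1 or 2) and 7 (without WT replicate 3) in this list, with 2 without KO replicate 3 and 3 without WT replicate 1 or 2.

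The marker lists of other cell types had low sums. The 4 B-lineage markers summed to between 0.654 and 1.05 FPKM in WT and between 3.61 and 4.87 FPKM in KO. Of them *Cd79b* could be tested and was higher (log2 difference 1.80, adjusted p 0.000268, limma). The T cell and erythroid markers summed to at most 0.433 FPKM, and the neural markers between 4.60 and 7.06 FPKM. The nuclear RNA *Malat1* had 127 ± 43.5 FPKM in WT and 110.3 ± 21.1 in KO (SD, n = 3), and *Neat1* had 17.7 ± 0.284 and 23.9 ± 0.528, without overlap. Column sums of FPKM were between 302530 and 340720, the highest in WT replicate 3, and the depth implied by the lowest steps of the values was 17600000 to 20300000 fragments per library.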

How the data were processed

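RNA-seq values of 6 libraries of BMDMs were analysed, 3 labelled WT and 3 labelled KO. The deposited values are FPKM computed by the authors for each gene, and their notes list fastp 0.17.1, HISAT2 2.1.0, DESeq2 1.18.1 and R 3.4.3. The quantifier, annotation, build and strandedness are not given in the sources used here, and labels and methods name different extraction, library and sequencing kits. FPKM is a share of each library, so a change in abundant genes shifts all others. Of 55335 identifiers, 55154 matched GENCODE M21 (GRCm38), from which positions, lengths and sequences were read. Each column carried the title of 1 sample.

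Genes averaging 0.5 FPKM or more were tested as log2(FPKM + 0.5), which understates the change of low genes, with limma 3.58.1 in R 4.3.3 (lmFit, eBayes with trend, two-sided, no covariates) and Benjamini-Hochberg adjustment over 13367 genes. The test was checked on simulated data. Copies of mitochondrial sequence were sought with blastn 2.17.0 among annotated transcripts. Anticodons were placed by a pattern, which found none in *mt-Tv*, *mt-Tm* and *mt-Ts2*. FPKM times transcript length lay within 0.1 of a whole multiple of 1 step per library in 37.3% to 40.5% of low values, where 20% would by chance, so fragment counts could not be restored for a count model. Fragment numbers derived from that step cover counting error only. Sums and ratios over genes were described and not tested.

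The genes named outside the mitochondrial genome were a fixed set of regulators and, per list, up to 3 genes per direction with the largest change among those with an adjusted p under 0.05, an average of 1 FPKM or more and no overlap of groups. The mitochondrial genes, lists and alternatives were chosen with earlier results of these data known. Alternatives were other pseudocounts (0.1 and 1), filters (none, and an average of 5 FPKM or more), scalings, a robust variance, the replicate block and each library left out. The fits with the copies added and without both libraries numbered 3 were chosen after seeing the data. Python 3.11.15, pandas 2.3.3, numpy 2.4.6 and matplotlib 3.10.9 were used for the other steps. Microglia were not analysed here.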

Additional observations from a re-analysis of the deposited data

How the results depend on the processing

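The number of mitochondrial genes called higher was 20 in the reported fit, 11 with no filter on low values, 11 with median-of-ratios scaling and between 12 and 24 when 1 library was left out, and the number called lower was 2, 1 with no filter and between 1 and 2 when 1 library was left out. Without a filter none of the 13 mRNAs was called (limma, 5 at an unadjusted p under 0.05), of 28101 genes tested. The cause was not tested. Calls among all genes were 5027, and 2739 with only genes averaging 5 FPKM or more, where fewer genes were tested, and between 3489 and 5945 with 1 library left out.

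Directions changed under median-of-ratios scaling for *mt-Nd1* (-0.019), *mt-Nd2* (-0.058) and *mt-Tr* (-0.0030), and otherwise only in tRNA genes that did not pass in the reported fit. These were *mt-Tf* with a pseudocount of 0.1 (-0.024) and without both libraries numbered 3 (-0.33), *mt-Ti* with the sum over other genes held equal (0.012) and without both libraries numbered 3 (0.34), and *mt-Tq* without both libraries numbered 3 (0.095). Leaving out 1 library gave -0.28 to 0.77 for *mt-Tf*, -0.33 to 0.19 for *mt-Ti*, -1.08 to 0.029 for *mt-Tq*, -0.16 to 0.15 for *mt-Tm* and -0.056 to 3.21 for *mt-Ts2*.

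Among the lists, genome transcription and maintenance held 7 calls, 3 with only genes averaging 5 FPKM or more and 4 to 11 with 1 library left out. RNA processing held 6, 1 to 10 with 1 library left out and 10 without both libraries numbered 3. The ribosome list held 7, 14 with values rescaled to the same sum over all or over the other genes, 3 to 22 with 1 library left out and 21 without both libraries numbered 3. Nuclear respiratory chain subunits held 3, 10 and 12 with those rescalings, 3 to 32 with 1 library left out and 39 without both. The mass list held 6, 2 with upper-quartile scaling and 1 to 7 with 1 library left out. The cause was not tested in any of these.

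The difference in the share of mRNA was 1.69 percentage points, 2.24 with the chromosome 1 copies added, and 1.37 to 1.96 with 1 library left out. That of tRNA was 0.194, 0.229 over the sum of protein-coding genes and 0.0108 weighted by length, the last because tRNA genes are short.

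Whether the replicate numbers mark pairs or a shared batch was not settled. The deviations of same-numbered libraries from their group means correlated by 0.116, 0.0360 and 0.264 across genes. WT replicates 1 and 2 correlated best with another number, and WT replicate 3 with KO replicate 3. With 3 libraries a group, such correlations cannot decide the question. With the replicate block, 25 mitochondrial genes were called higher and 2 lower, 16 genes of the ribosome list and 11 nuclear respiratory chain subunits were called, and the counts of the other lists and of all genes stayed within 1.5 times.

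With 3 libraries a group, differences in *mt-Tf*, *mt-Tv*, *mt-Ti*, *mt-Tq* and *mt-Ts1*, which had at most about 8.69 fragments in any library, and in *mt-Ts2*, which had that few in 5 of 6, are not well resolved, the calls of *mt-Tv* and *mt-Ts1* included.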
